A study of Oryza sativa with 6 samples.

Results

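OsHAK17 and 9 other genes of the HAK family of potassium transporters were followed in shoots of the rice mutant line dst and of its wild-type comparison. The members were found by name. Of 17905 genes with a probe set of their own, 22 carry the name HAK with a number in the gene table used, and they are read by 29 probe sets. OsHAK17 was singled out with its difference between the lines already known, so that difference is given here as a description with no test. The other 9 were those with the highest mean signal over the 6 arrays, taking the brightest probe set of each gene. They were chosen by mean signal, which does not use the difference between the lines. The last gene inside was OsHAK23 with a mean signal of 1072, and the first outside was OsHAK15 with 861. Averaging the probe sets of a gene would have put OsHAK15 in the place of OsHAK22. The 10 genes are read by 15 probe sets, and all 15 lay above the filter on low signal, set at the 40th percentile of the rice probe sets (a signal of 70.5). OsHAK17 itself had a mean signal of 786.

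HAK proteins, also called HAK/KUP/KT, are membrane carriers that move potassium into cells or out of vacuoles, in many members together with protons. In rice the family is best known for potassium uptake by roots when the soil holds little of it, for loading potassium into the xylem toward the shoot, and for keeping potassium high relative to sodium under salt. In shoots, potassium carriers serve turgor, leaf growth and the swelling of guard cells that opens stomata.

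The samples were the dst mutant line and the japonica cultivar Zhonghua 11 as wild type, with 3 biological replicates each and 1 Affymetrix rice array per sample. The DST protein of rice is a zinc finger regulator of transcription, known for its part in stomatal opening and in tolerance of drought and salt. All 6 samples were shoots of seedlings 25 days old, raised in a growth chamber on 11 h light (26 °C) and 13 h darkness (22 °C), and the labels name no stress treatment for either line. The labels name neither the dst allele nor the cultivar the mutant was made in, and the transcript of DST itself was not analysed here.

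With 3 arrays a line, precision is limited by their number. The rice probe sets had a median signal of 123.9 to 131.3 on the dst arrays and 117.6 to 140.9 on the wild-type arrays. The highest signal was 32620 on the third dst array and 31461 on the third wild-type array, and 41451 or more on the other 4. As a sign of RNA quality, the 3'/5' ratio of the GAPDH controls on the log2 scale was 1.01 to 1.36 in dst and 0.35 to 0.62 in the wild type. The same ratio for actin overlapped, at 1.51 to 1.75 in dst and 1.66 to 1.76 in the wild type. Of 10 photosynthesis genes taken as shoot markers 9 lay above the filter, among them the chlorophyll-binding protein gene CAB2R with a mean signal of 37291 over the 6 arrays. Of 6 root markers 4 lay above it, among them the silicon transporter gene Lsi1 with 1473, while Lsi2 had 13.0 and the Casparian strip gene OsCASP1 had 44.7. None of the 10 or of the 6 passed the test between the lines, and the summed signal of the 6 root markers was 4923 to 8857 in dst and 6154 to 8799 in the wild type. Of 9 anther markers 4 lay above the filter, and the sum over the 9 was 7140.2 to 8117 in dst and 7709.6 to 9157 in the wild type. Most of that sum came from the single gene OsCP1, with 5172 to 5883 in dst and 5715 to 7019 in the wild type. Another gene matched by the name CP1 lay below the filter. RTS, TDR and MADS6 also did, with mean signals of 13.4 to 19.2.

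OsHAK17 (LOC4347211) had a lower signal in dst shoots in the brighter of its 2 probe sets, an at set, a kind designed to match 1 transcript or gene alone. The signals were 559, 664 and 586 on the 3 dst arrays, against 1234, 846 and 825 on the 3 wild-type arrays. Every dst value lay below every wild-type value, and the first wild-type array stood above the other 2. The means were 603 ± 54.9 in dst and 968 ± 230.3 in the wild type (SD, n = 3 each). The difference in mean log2 signal was -0.66 ± 0.18 (SE), which is 0.632 times the wild-type level. Leaving out 1 array at a time gave -0.76 to -0.47, with the smallest difference without the first wild-type array.

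The other OsHAK17 probe set, an x_at set, did not separate the lines. Such a set holds some probes that can also match other transcripts, so its signal may not come from OsHAK17 alone. Its signals were 283, 433 and 427 in dst, against 576, 383 and 397 in the wild type. The first array was the lowest of the dst line and the highest of the wild type, and the other 4 arrays lay within 383 to 433. The log2 difference was -0.25 ± 0.23 (SE) over all arrays. It was -0.05 without the first dst array and -0.06 without the first wild-type array, and reached -0.36 with another array left out.

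The ratio of the brighter to the dimmer OsHAK17 probe set was lower on the dst arrays. On the log2 scale it was 0.98, 0.62 and 0.46 on the dst arrays, against 1.10, 1.14 and 1.05 on the wild-type arrays. The 3 wild-type ratios lay close together and all 3 dst ratios lay below them. The ratio includes the brighter set, so it is a description and not separate from the difference given above. The mean was 0.69 ± 0.27 in dst and 1.10 ± 0.04 in the wild type (SD, n = 3 each). The gene table lists more than 1 RefSeq transcript for OsHAK17, and which of them each probe set reads was not tested. In the same samples the GAPDH ratio of 3' to 5' signal was higher on each dst array, as given above, and its part in the OsHAK17 values was not tested. In whole shoots, fewer cells of a type that express a gene and less RNA of it per cell cannot be told apart.

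**Figure D1:**
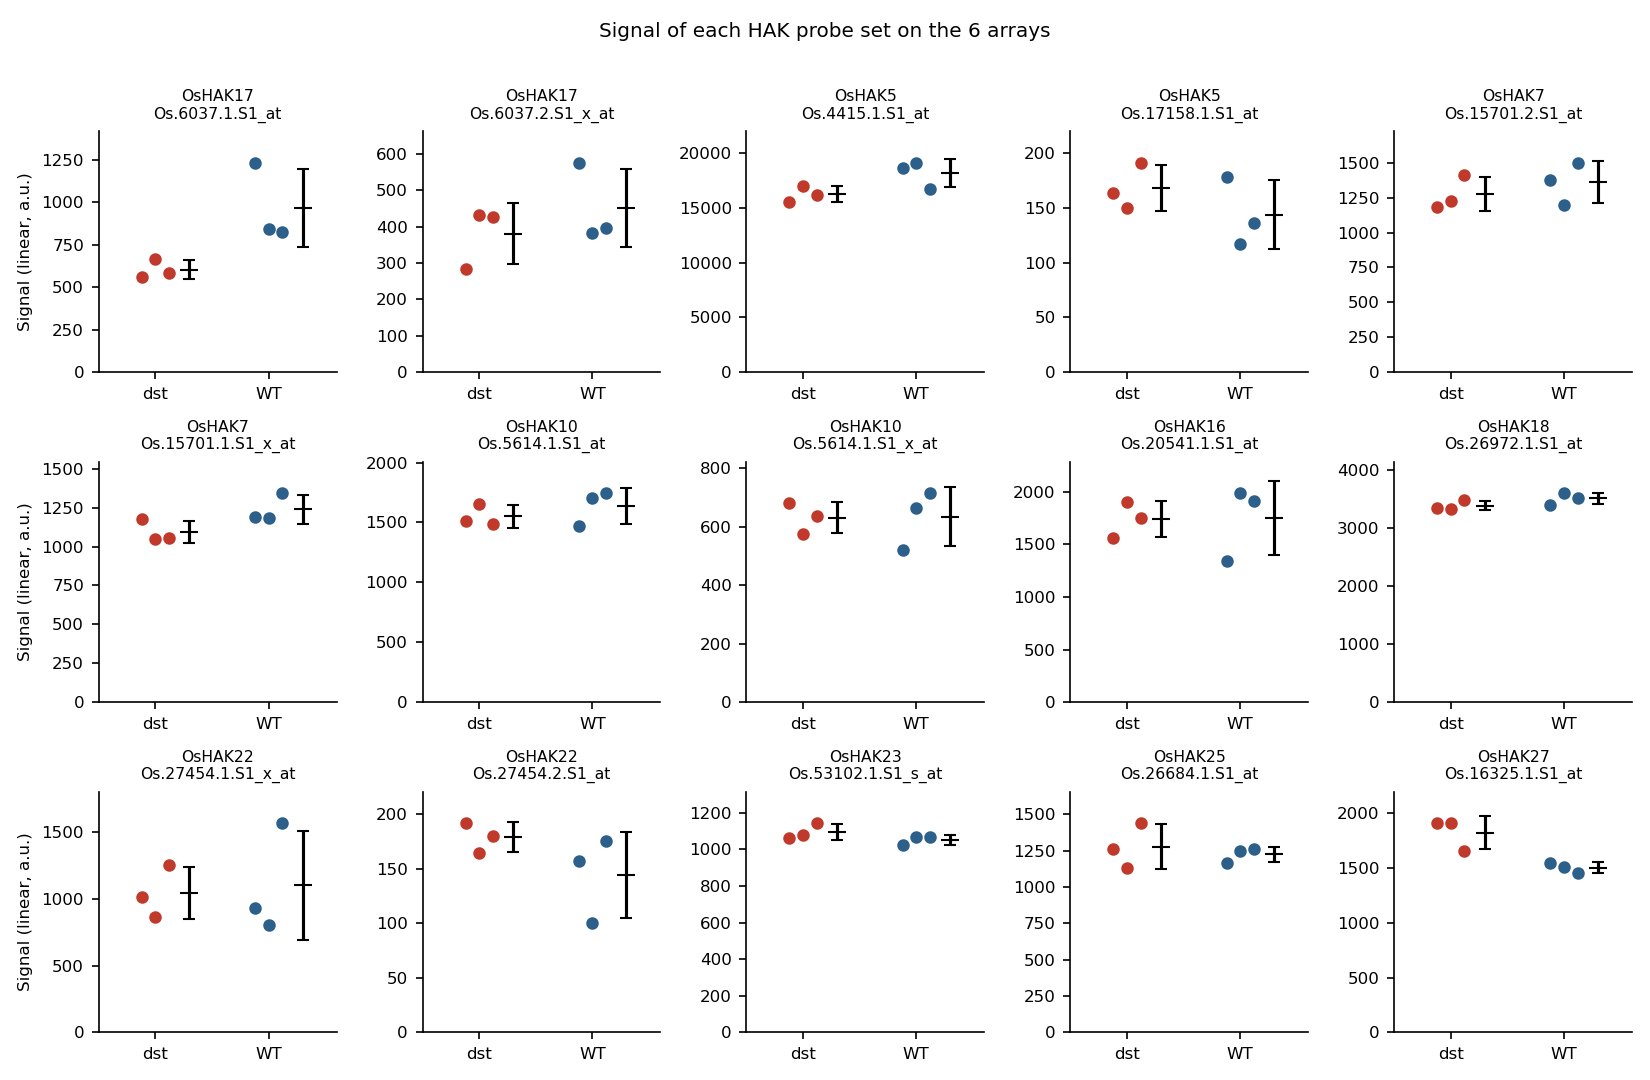
Signal on a linear scale (vertical axes, arbitrary units, starting at 0) for the 15 HAK probe sets on the 3 dst arrays (red) and 3 wild-type arrays (blue, labelled WT), with points in the order of replicates 1 to 3 and black bars for the mean ± SD. The groups are apart for the brighter OsHAK17 set, for OsHAK27, and narrowly for the x_at set of OsHAK7, and they overlap in the other 12 panels.

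Among the 9 other genes no probe set was called. In limma with Benjamini-Hochberg adjustment over all tested probe sets, 0 of their 13 probe sets passed an adjusted p of 0.05, with adjusted p from 0.415 to 0.999, while 0.924% of the 34316 tested probe sets (317) passed. The count over the array was 138 without the first dst array, 179 without the second, 118 without the second wild-type array and 177 without the third, and that of the 13 stayed 0. An unadjusted p under 0.05 was reached by 1 of the 13, against 10.5% of all tested. The 3 dst values lay apart from the 3 wild-type values in 2 of the 13 (15.4%), against 16.6% of all tested probe sets, so this share was near the background. Of the 2, OsHAK27 was higher in dst, where 9.31% of all tested were apart in that direction, and the x_at set of OsHAK7 was lower, where 7.32% were. The 95% interval of the difference lay within a 2-fold change either way for 12 of the 13. The exception was the dimmer OsHAK22 probe set. Over the array this held for 23309 of the 34316 tested probe sets, and the 9 genes were chosen for high signal.

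OsHAK27 (LOC4333296) had the smallest p of the 13. Its signals were 1911, 1909.9 and 1653 in dst, against 1547, 1513 and 1453 in the wild type. Each dst array lay above each wild-type array, and the wild-type values were close together. The means were 1825 ± 148.9 in dst and 1504 ± 47.8 in the wild type (SD, n = 3 each). The log2 difference was 0.28 ± 0.11 (SE), with a 95% interval of 0.03 to 0.53 and an adjusted p of 0.415 in limma, so it did not pass. It stayed between 0.24 and 0.35 with each array left out. The GAPDH ratio was also higher on each dst array. Within dst it was highest on the third array, where OsHAK27 was lowest. Its part in the OsHAK27 values was not tested.

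OsHAK16 (LOC4333298), which in rice acts in potassium uptake by roots and its transport to shoots, is the next gene after OsHAK27 in the gene table, with 0 genes between them. Its signals were 1560.0, 1907 and 1755 in dst, against 1344, 1989.6 and 1915 in the wild type. The first array was the lowest in each line and the ranges overlapped. The log2 difference was 0.01 ± 0.16 (SE), with a 95% interval of -0.36 to 0.38. A test of OsHAK27 against OsHAK16 was not run.

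OsHAK5 (LOC4326945), known in rice for high-affinity potassium uptake and for moving potassium from root to shoot, had signals of 15527, 16992 and 16207 in dst in its brighter probe set. The wild-type arrays gave 18623, 19118 and 16692. The highest dst array overlapped with the lowest wild-type array. The log2 difference was -0.16 ± 0.10 (SE), with a 95% interval of -0.38 to 0.07 and an adjusted p of 0.651 in limma. A dimmer OsHAK5 probe set gave 164, 150.3 and 191.5 in dst, against 179, 117 and 136.5 in the wild type. Its difference was 0.24 ± 0.29 (SE), on the other side of 0, with a 95% interval of -0.40 to 0.89. It was 0.10 without the second wild-type array, 0.15 without the third dst array and 0.41 without the first wild-type array. Both 95% intervals include 0. That both sets read OsHAK5 was taken from the annotation alone.

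OsHAK18 (LOC4347862), known in rice for moving potassium back through the phloem, had one of the narrowest spreads. Its signals were 3348, 3329.7 and 3479 in dst, against 3406, 3606 and 3521 in the wild type. The highest dst array lay between the lowest and the middle wild-type array. The log2 difference was -0.05 ± 0.09 (SE), with a 95% interval of -0.26 to 0.16, which bounds the fold between 0.833 and 1.12. OsHAK10 (LOC4341573), whose protein is located in the vacuolar membrane, gave 1508, 1658 and 1486 in dst, against 1468, 1708 and 1747 in the wild type. The ranges overlapped, with a difference of -0.08 ± 0.12 (SE). Its x_at probe set, with 574 to 681 in dst and 521 to 715 in the wild type, measured 0.00 ± 0.16 (SE).

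OsHAK23 (LOC4346918) varied little between any of the arrays. Its signals were 1059, 1076 and 1143 in dst, against 1022, 1067 and 1066 in the wild type, in an s_at probe set, a kind that matches several transcripts. Their log2 difference was 0.05 ± 0.11 (SE), with a fold between 0.872 and 1.24 at 95%. OsHAK25 (LOC4330614) gave 1263, 1128 and 1439 in dst, against 1166, 1249 and 1260.2 in the wild type. The wild-type values lay inside the dst range, and the log2 difference was 0.05 ± 0.13 (SE). It was -0.04 without the third dst array, which was the highest.

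OsHAK7 (LOC4344235) had lower means in dst in both of its probe sets, and neither passed. The brighter one had 1186, 1229.7 and 1413 in dst, against 1378, 1200.0 and 1501 in the wild type, a log2 difference of -0.09 ± 0.13 (SE). The dimmer one, an x_at set, had 1177, 1047 and 1056 in dst, against 1190.5, 1181 and 1345 in the wild type. Its dst values all lay below its wild-type values, by a margin of a few units between the nearest arrays, and its log2 difference was -0.18 ± 0.12 (SE), where limma's adjusted p was 0.674.

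OsHAK22 (LOC4342173) had the widest spread within the lines. Its brighter probe set, an x_at set, gave 1018, 864 and 1255 in dst, against 935, 804 and 1569 in the wild type. The third array was the highest of each line and the second the lowest. This gave a log2 difference of -0.03 ± 0.24 (SE) over all arrays, and of 0.25 without the third wild-type array. The dimmer probe set gave 192, 165 and 180.5 in dst, against 158, 100.2 and 176 in the wild type. Its difference was 0.35 ± 0.30 (SE), with an interval that reaches a fold of 2.03, and was 0.10 without the second wild-type array and 0.51 without the third. Over the 15 probe sets the third array was the highest of both lines in 3, the brighter sets of OsHAK22 and OsHAK7 and the set of OsHAK25.

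**Figure D2:**
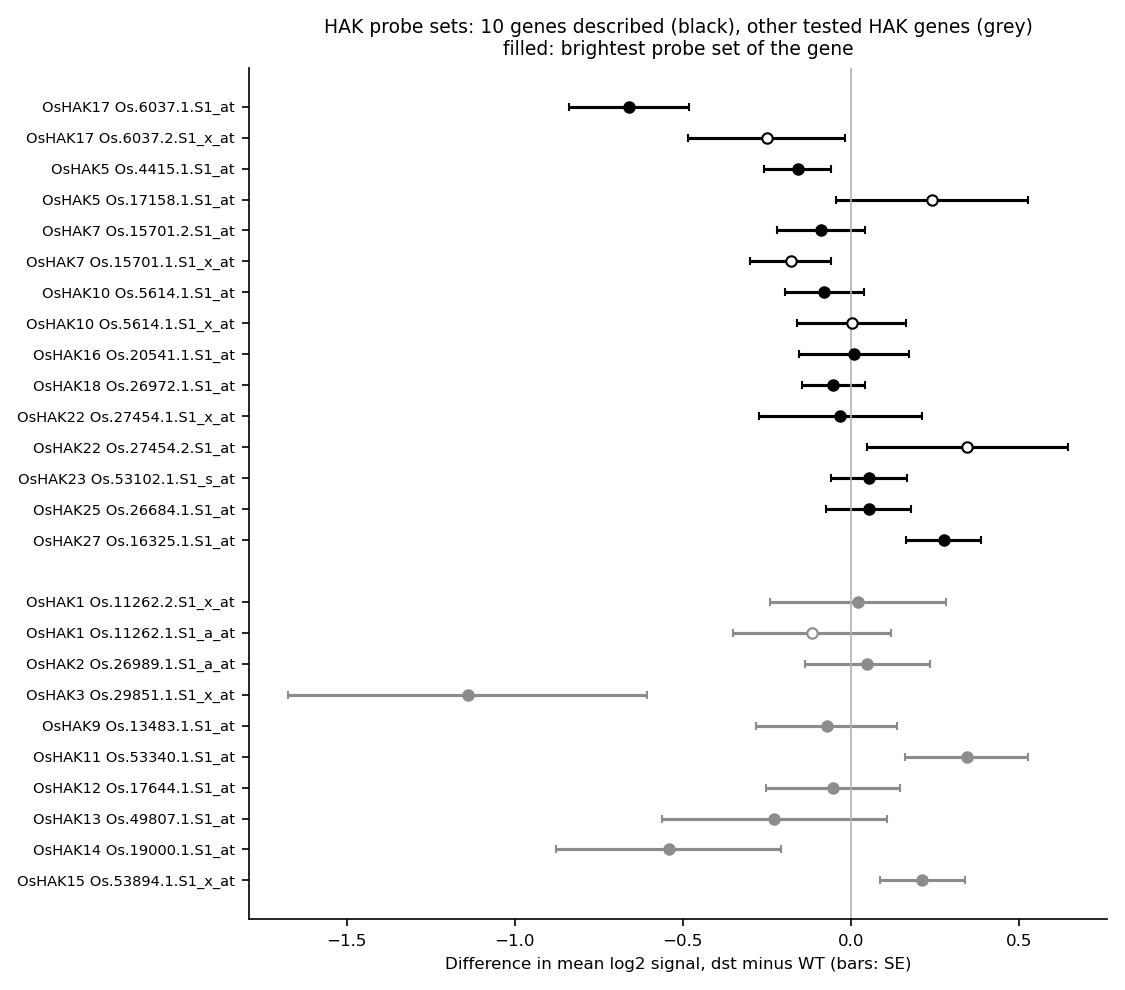
Difference in mean log2 signal, dst minus wild type (horizontal axis), with bars for the SE from limma, for the 15 probe sets of the 10 HAK genes (black) and the 10 tested probe sets of other HAK genes (grey); filled points are the brightest probe set of a gene. OsHAK17 lies at -0.66, OsHAK27 at 0.28, and the brightest probe sets of the other 8 genes lie between -0.16 and 0.05.

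The within-group spread differed widely among the members. The within-group SD of log2 signal ran from 0.04 for OsHAK18 to 0.41 for the brighter OsHAK22 set, and was 0.25 for the brighter OsHAK17 set. It was below the median over all tested probe sets, 0.27, in 12 of the 15. Since 9 genes were chosen for high signal, this count describes bright probe sets. Over the 10 genes, with the brightest probe set of each, 4 had a higher mean in dst and 6 a lower one, while 54.3% of all tested genes had a higher mean in dst. OsHAK17 is among the 6, and its direction was known when it was singled out. Over the 9 others, 4 were higher and 5 lower, with a median log2 difference of -0.03. The median over all 10 was -0.04, beside 0.02 over all 16013 tested genes. The median turned to 0.02 without the third wild-type array and to 0.03 when the probe sets of a gene were averaged.

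In 5 genes a pair of probe sets could be compared on each array. For the 4 genes other than OsHAK17 the log2 ratio of the brighter to the dimmer set overlapped between the lines. The difference of the ratios, dst minus wild type, was -0.40 for OsHAK5, -0.38 for OsHAK22, -0.08 for OsHAK10 and 0.09 for OsHAK7. A two-sided exact permutation test gave p = 0.2 for OsHAK5 and OsHAK22, 0.6 for OsHAK10 and 0.5 for OsHAK7, where 0.1 is the smallest value that 3 arrays against 3 allow. For OsHAK17 the difference was -0.41, of a size like those of OsHAK5 and OsHAK22. The pairs are unlike in signal, since the dimmer sets of OsHAK5 and OsHAK22 had means of 156 and 162, against 416 for OsHAK17. The part of low signal in these ratios was not tested. The OsHAK17 ratio includes the brighter set, and the difference of OsHAK17 was known beforehand, so its separation was not tested. The wild-type ratios were tighter for OsHAK17, with an SD of 0.04 against 0.33 for OsHAK5 and 0.31 for OsHAK22. The dst ratios were not, with an SD of 0.27 for OsHAK17 against 0.20 to 0.23 for the other 4 genes.

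**Figure D3:**
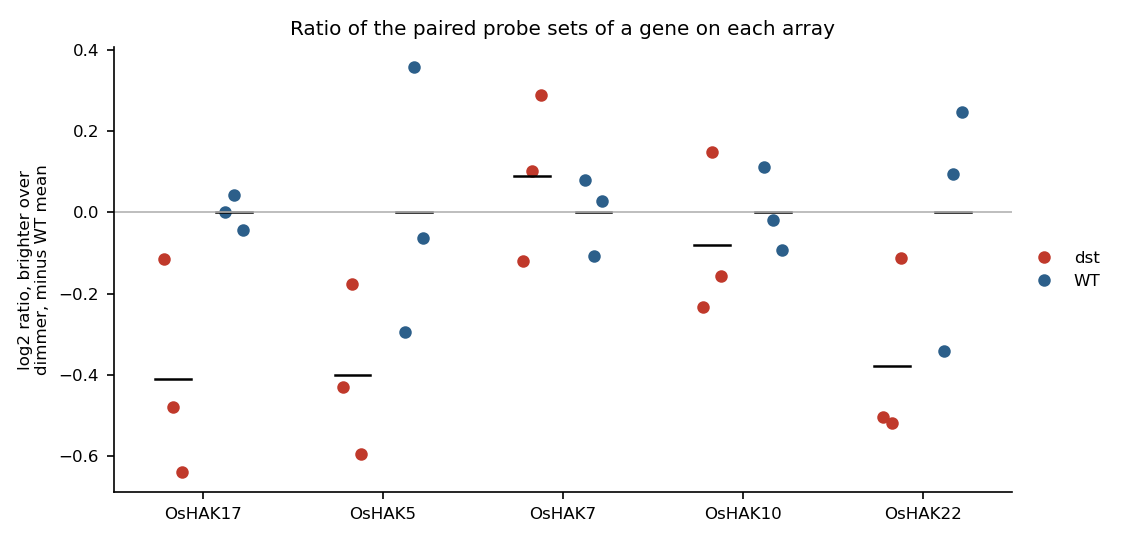
Log2 ratio of the brighter to the dimmer probe set of a gene on each array, after subtracting the wild-type mean of that ratio (vertical axis), for the 5 HAK genes with a pair of probe sets; red points are dst arrays, blue points wild-type arrays (WT), and black lines group means. For OsHAK17 all 3 dst ratios lie below the 3 wild-type ratios, and for the other 4 genes the groups overlap. OsHAK17 was singled out with its difference known, and its ratio includes the brighter set.

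The other 12 HAK genes on the array gave no call either, and those described here were picked after their values were seen. Of their 14 probe sets, 10 lay above the filter. Of these, 0 passed in limma, against 0.924% of all tested probe sets. An unadjusted p under 0.05 was reached by 0 of the 10, against 10.5% of all tested. The dst values lay apart from the wild-type values in 1 of the 10 (10%), OsHAK15, against 16.6% of all tested. OsHAK1, the main carrier of high-affinity potassium uptake in rice roots, had 497, 734 and 796 in dst, against 458, 668 and 907 in the wild type. The ranges overlapped, with a log2 difference of 0.02 ± 0.26 (SE). OsHAK15, just outside the choice, had 909 to 951 in dst and 722 to 853 in the wild type, with a log2 difference of 0.21 ± 0.13 (SE), where limma's adjusted p was 0.623. The largest difference in size was that of the dim OsHAK3 probe set, at -1.14 ± 0.53 (SE). Its signals overlapped, at 45.0 to 73.4 in dst and 72.0 to 265 in the wild type, and the filter lay at 70.5. Its dst mean of 62.2 lay below the filter, which it passed through its wild-type values. OsHAK4, OsHAK20 and OsHAK26 lay below the filter in all their probe sets, with mean signals of 7.68 to 25.5.

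Other genes of potassium transport were taken by name. Of 5 potassium channel genes, all above the filter, 0 passed. Among all tested genes, with the brightest probe set of each, 0.999% passed. The channel gene with the smallest p was KCO2, of the TPK family of vacuolar channels, with 384, 391.6 and 411 in dst, against 278, 240.1 and 372 in the wild type. Its dst values lay above its wild-type values, and the log2 difference was 0.44 ± 0.20 (SE), where limma's adjusted p was 0.498. AKT1, the inward potassium channel of root uptake, had 516 to 666 in dst and 609 to 802 in the wild type, with a difference of -0.21 ± 0.16 (SE). Of the other cation carriers, HKT1.5, a sodium transporter, had a mean signal of 70.0 and was below the filter, and CCC1, a cation-chloride cotransporter, measured -0.05 ± 0.12 (SE) in its brighter probe set. The dimmer CCC1 set gave 35.4, 40.3 and 73.2 in dst, against 147, 140.0 and 201.3 in the wild type, a difference of -1.77 ± 0.45 (SE), where limma's adjusted p was 0.149. Its dst mean of 49.6 lay below the filter of 70.5, which this set passed through its wild-type values. The size of its difference is therefore uncertain. No gene of the plasma membrane proton pump list was matched by name.

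CBL proteins are calcium sensors and CIPK proteins are the kinases they bind, and in rice this system is known to activate AKT1. With the brightest probe set of each gene, 29 of 31 such genes lay above the filter and 0 passed in limma, with an unadjusted p under 0.05 for 1, against 12.7% of all tested genes. In 10 of the 29 (34.5%) the dst mean was the higher one, against 54.3% of all tested genes, and the median log2 difference was -0.04. CIPK1 had 5588, 7233 and 4394 in dst, against 9879.9, 7203 and 6915 in the wild type. The second dst array lay within the wild-type range, and the difference was -0.49 ± 0.19 (SE) with an adjusted p of 0.401. CIPK6 measured 0.36 ± 0.20 (SE). CIPK2 measured 0.19 ± 0.21 (SE) in its brightest probe set. A dimmer CIPK2 set gave 187, 91.0 and 23.3 in dst, against 387, 236 and 198.5 in the wild type. Its dst values lay below its wild-type values and spread widely, with a difference of -1.84 ± 0.66 (SE), an unadjusted p of 0.0209 and an adjusted p of 0.347 in limma. CIPK23, the kinase that acts on AKT1 in rice, measured -0.01 ± 0.12 (SE) in its brighter probe set. CIPK2 and CIPK23 were named after their values were seen.

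**Figure D4:**
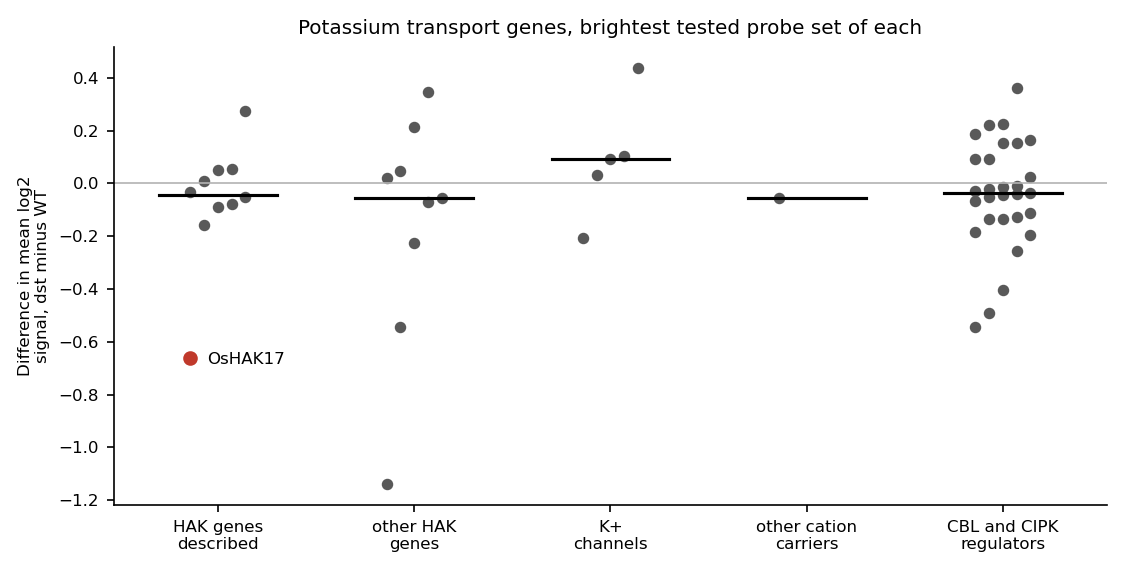
Difference in mean log2 signal, dst minus wild type (vertical axis), for the brightest tested probe set of each gene in the 10 HAK genes, 9 other tested HAK genes, 5 potassium channels, 1 other cation carrier and 29 CBL and CIPK regulators; black lines are medians. The medians lie between -0.05 and 0.09, and OsHAK17 (red) lies at -0.66.

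The genes beside the members in the gene table were compared in the same way. With 5 measured genes on each side of each member, there were 90 distinct neighbours that are not members. Of these 1 passed in limma, LOC4330615 next to OsHAK25, with a log2 difference of 0.69 ± 0.13 (SE) and an adjusted p of 0.0487. It passed in 5 of 15 alternative fits and in 0 of the 6 that leave out 1 array, with differences of 0.64 to 0.76. OsHAK25 itself measured 0.05. The 3 dst values lay apart from the 3 wild-type values for 14 of the 90 (15.6%), against 19.2% of all tested genes. Around OsHAK17, 0 of 10 measured neighbours passed, with differences from -0.36 to 0.66 and a median of -0.20.

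Among 2246 other named genes, those whose profile over the 6 arrays lay nearest to that of the brighter OsHAK17 set were listed as a description. Nearness was the root mean square difference of log2 signals after subtracting the mean of each gene. The nearest was OsHox8, a homeobox gene, at 0.03, followed by the beta-glucosidase gene BGLU25 at 0.11 and the chitinase gene Cht6 at 0.13. RA14, a seed allergen gene, lay at 0.13 and OsNrx1-1, a nucleoredoxin gene, at 0.14. OsHox8 had 136, 166 and 140 in dst, against 291, 201 and 203 in the wild type, with the first wild-type array highest as for OsHAK17. The median distance over the named genes was 0.44, that of the dimmer OsHAK17 set was 0.26, and those of the other 9 HAK genes were 0.31 to 0.55. Such nearness over 6 arrays does not say that the genes share anything else.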

How the data were processed

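The values the authors deposited are linear intensity values (signals), 1 for each probe set of each array. How they were scaled is not given in the sources used. RNA was extracted with Trizol and labelled with biotin, per the labels' protocols. Signals were floored at 1 before log2, and 187 probe sets for controls and reporters were dropped. Of the other 57194, 34316 with a mean log2 signal at or above the 40th percentile (70.5 as a signal) were tested. Arrays were not normalized again, since their medians differed by at most 0.26 on the log2 scale. The test was limma's (version 3.58.1, R 4.3.3), with lmFit and a trended eBayes, Benjamini-Hochberg adjusted at 0.05, and the procedure was tested on simulated data. Names came from GEO's platform annotation, updated through RefSeq's genes for assembly ASM3414082v1, which gave names and gene order only. It found the gene of all 22436 probe sets with 1 gene, while 95 have several and 34663 none. The members and gene lists were chosen with earlier results of these data known. The rule for named genes gave the members, the 1 or 2 genes with the smallest p in the lists of channels, carriers and regulators, and the 5 nearest profiles. The other HAK genes, dimmer probe sets of list genes, CIPK2, CIPK23, the neighbour and the marker genes are named outside it, chosen after their values were seen. The labels state no pairing, so the replicate numbers were not taken as pairs. Same-numbered replicates correlated at 0.05, 0.05 and 0.20 in their deviations from the group means. Differently numbered replicates were not compared, so these values do not settle whether arrays shared a batch. Fits with a replicate block and with the third arrays as a block are given below. Whether replicates came from separate plants is not stated beyond the word biological, and p-values measure the spread between these samples. Python 3.11.15 with matplotlib 3.10.9 drew the figures.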

Additional observations from a re-analysis of the deposited data

How the results depend on the processing

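The count of called probe sets among the 9 HAK genes other than OsHAK17 was 0 in limma. It stayed 0 in 15 alternative fits, with 0 to 2 at an unadjusted p under 0.05. With the replicate block it was 0, while the count over the whole array was 463 beside 317. That count was also 80 without variance trend, 532 with array weights, 606 with the third arrays as a block, 251 to 369 in the other fits on all arrays, and 118 to 280 with 1 array left out. The potassium channel, carrier and CBL and CIPK lists also held 0 calls in the same 15 fits. OsHAK17 measured -0.76 to -0.47 with 1 array left out and -0.69 to -0.60 in the other fits. The median over the 10 genes was -0.098 to 0.025 with 1 array left out, and 0.025 with probe sets averaged. Signs near 0 changed for 4 probe sets, and the cause was not tested. The x_at set of OsHAK10 was -0.031 with median centring, -0.0033 with quantile normalization, -0.025 with array weights, and -0.13 to 0.096 with 1 array left out. OsHAK16 was -0.024 with median centring, -0.080 with array weights and -0.17 to 0.11 with 1 array left out. The brighter OsHAK22 set was 0.024 with array weights and -0.23 to 0.25 with 1 array left out. OsHAK25 was -0.037 to 0.14 with 1 array left out. Without detection calls, signal over background is not known, which limits values near the filter.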
